A study of Oryza sativa with 12 samples.

Results

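NAC transcription factors of rice leaves were followed through bicarbonate salt-alkali stress in 2 varieties, QJ10 and LJ31, called QJ and LJ below as in the column headers of the deposited tables. A gene was taken as a NAC gene if its name in any of the 4 deposited tables held the letters NAC directly followed by a digit, which gave 55 genes of the 13674 in the tables. RNA sequencing of total leaf RNA covered 4 groups of 3 libraries: QJ10 leaves under stress at 200 mmol/L, QJ10 control leaves, LJ31 leaves under the same stress, and LJ31 control leaves. The labels abbreviate the controls CK. The labels give neither plant age nor length of stress, and nothing beyond the variety name for the genotype. The series record calls the libraries of a group biological replicates, but no label ties them to separate plants, so the tests weigh differences against a library-to-library spread that may be technical.

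Values are FPKM, that is, fragments scaled to gene length and library size, so levels can be set side by side between genes. Each table compares a pair of groups and lists only genes that had passed the authors' own selection: their adjusted p is below 0.05 throughout and their log2 fold change is never smaller than 1 in either direction. A gene missing from a table is therefore called not listed, which does not mean unchanged. Of the 55 NAC genes, 28 were listed in the QJ stress table, 24 in the LJ stress table, 36 between stressed QJ and stressed LJ leaves, and 27 between QJ and LJ control leaves. Values in all 12 libraries existed for 24 genes, in 9 libraries for 20 and in 6 libraries for 11. The tables hold no read numbers, and the depth behind a value is therefore unknown.

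NAC proteins are a plant family of transcription factors that share a conserved DNA-binding domain at the N-terminal end and differ in the C-terminal region that activates or represses their targets. In rice, members such as SNAC1, OsNAC6 and NAC5 are known for drought and salt tolerance, NAC58 for leaf senescence, OsNAC4, NAC122 and NAC131 for defence, and a further group for secondary wall thickening in vessels and fibres. Some are held at a membrane and released to the nucleus under stress.

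The tissue label was checked with markers. The 6 markers of green leaf with values in all libraries summed to 1159 to 1183 FPKM in stressed QJ, 5593 to 5743 in control QJ, 463 to 471 in stressed LJ and 4294 to 4315 in control LJ libraries. The 4 anther markers with values in all libraries, of 8 found, summed to 2.40 to 2.56 FPKM in stressed QJ, 1.17 to 1.95 in control QJ, 7.70 to 10.6 in stressed LJ and 247 to 256 in control LJ libraries. The 6 inflorescence markers with values in all libraries, of 9 found, summed to 0.74 to 1.34, 0.49 to 0.83, 10.4 to 11.1 and 104 to 115 FPKM in the same order of groups. RTS and OsMST8, anther markers, were listed at 0 in control QJ and stressed LJ libraries, and OSH1, a meristem marker, in stressed QJ libraries. Of all 5990 genes tested between LJ groups, which the authors had selected, 99.7% passed and 50% were lower under stress. Of the anther markers tested there, 7 of 8 were lower under stress, and of the inflorescence markers 8 of 8. The exception was EAT1, an anther regulator, at 3.88 FPKM on average in stressed LJ and 1.42 FPKM in control LJ leaves, and RFL, an inflorescence gene under the filter on low values, had 0.10 to 0.30 FPKM in stressed LJ libraries and was listed at 0 in control LJ libraries. The summed reproductive markers were thus highest in the LJ control libraries, and every NAC comparison that uses those libraries carries this difference, whose part in the NAC results was not tested. In bulk leaf RNA, fewer cells of a type and less RNA per cell cannot be told apart.

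Expression spanned a wide range within the family. SNAC1 (Os03g0815100) reached 1735 FPKM in a control QJ library and OsNAC6 (Os01g0884300) 1610.3 FPKM in a stressed LJ library. The highest group mean was at least 100 FPKM for 12 genes, at least 10 FPKM for 31 and under 1 FPKM for 4, namely ONAC109, ONAC123, ONAC133 and OsNAC7. Replicate libraries lay close together: among NAC genes at 5 FPKM or more, the median coefficient of variation within a group was 4.41% in stressed QJ, 3.61% in control QJ, 3.02% in stressed LJ and 3.98% in control LJ leaves. Summed over the 24 genes with values in every library, NAC expression was 806 to 813 FPKM in stressed QJ, 432 to 436 in control QJ, 1359 to 1397 in stressed LJ and 834 to 845 in control LJ libraries. Both sums were higher under stress, with no overlap between groups of a variety, and both LJ sums exceeded the QJ sums of the same treatment. The sums of all genes with values in every library were also higher in LJ, at 179025 to 180215 FPKM in stressed QJ, 162786 to 163475 in control QJ, 273748 to 274404 in stressed LJ and 230915 to 232109 in control LJ libraries. As a share of them, the NAC genes took 0.449 to 0.453%, 0.265 to 0.267%, 0.496 to 0.509% and 0.361 to 0.365% in the same order of groups. SNAC1 and OsNAC6 are not in these sums, as each lacks values in 3 libraries. SNAC1 averaged 356 FPKM in stressed QJ and 1702 FPKM in control QJ leaves, so adding it alone would reverse the order of the QJ sums. OsNAC6 averaged 1600 FPKM in stressed LJ and 840 FPKM in control LJ leaves, so adding it alone would enlarge the LJ rise. The control QJ level of OsNAC6 and the control LJ level of SNAC1 are not listed. The rise of the sums under stress therefore holds for these 24 genes, and the sum over the family is unknown in both varieties.

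**Figure D1:**
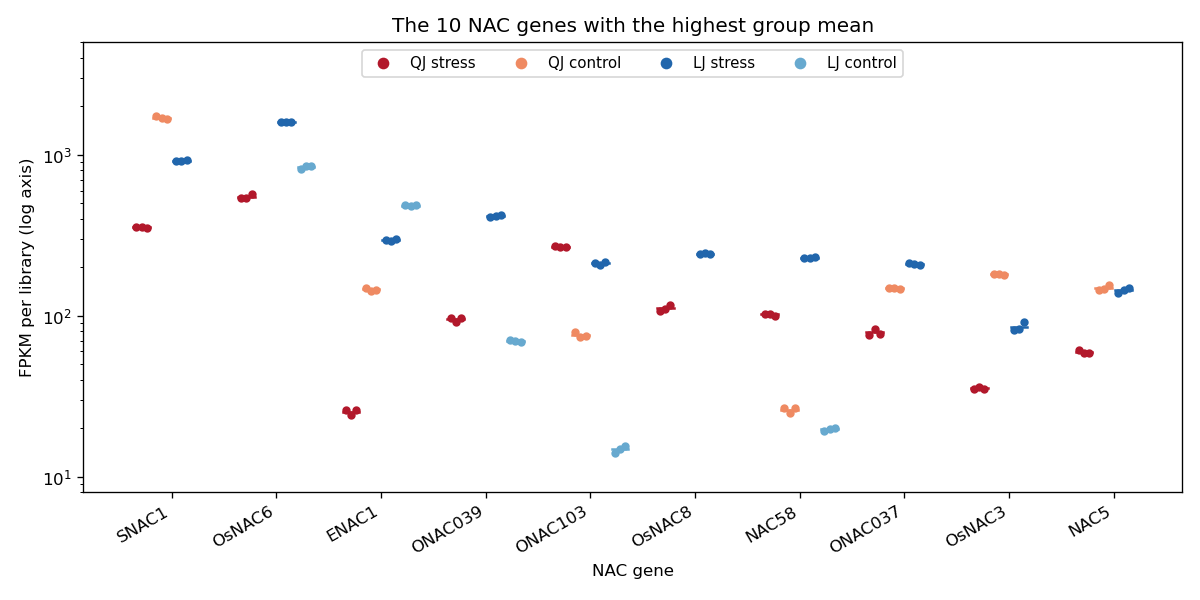
FPKM per library on a log axis for the 10 NAC genes with the highest group mean, with stressed and control QJ and LJ libraries as points and each group mean as a short line; a group without points was not listed. SNAC1 stands at 352 to 357 FPKM in stressed QJ leaves against 1678 to 1735 FPKM in control QJ leaves, while ONAC103 is higher under stress in both varieties.

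Of the 24 genes with values in every library, 11 (45.8%) had their highest group mean in stressed LJ leaves, 6 (25.0%) in stressed QJ, 7 (29.2%) in control LJ and 0 in control QJ leaves. Over all genes with values in every library the shares were 27.6%, 19.4%, 40.2% and 12.9% in that order. These shares describe genes that the authors had selected in at least 2 comparisons, and they are not a test of the family.

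**Figure D2:**
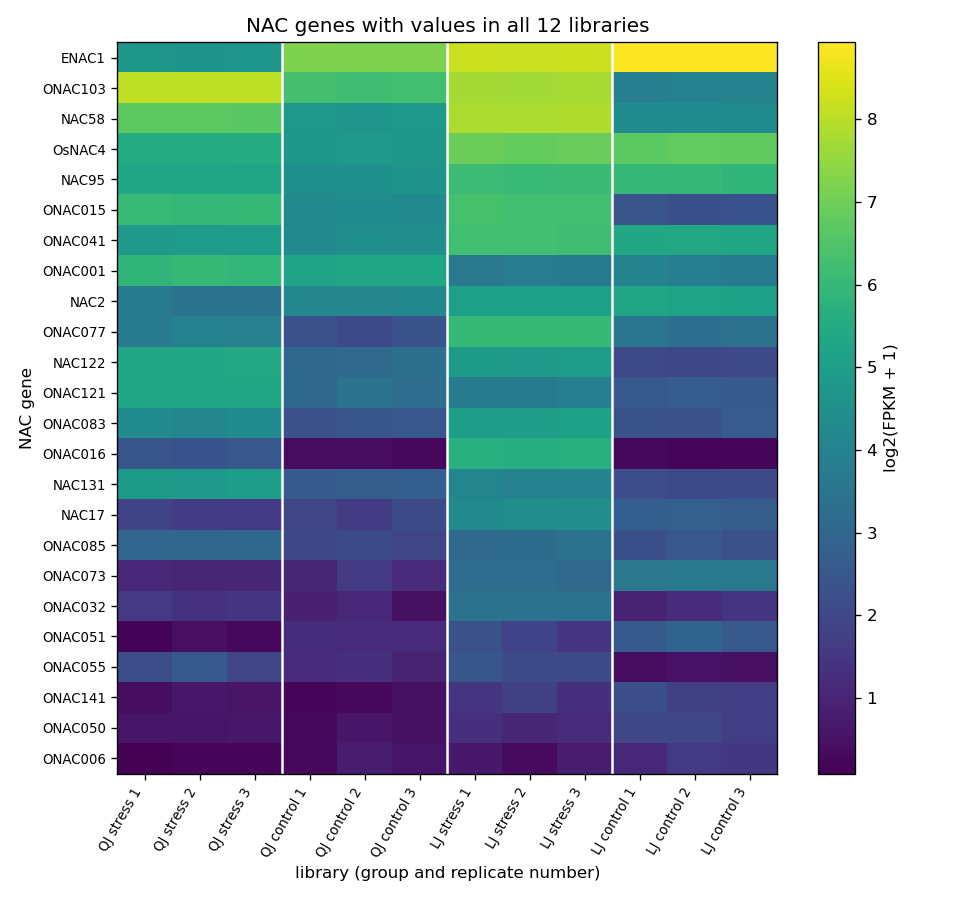
Heat map of log2(FPKM + 1) for the 24 NAC genes with values in all 12 libraries, one column per library and genes ordered by their summed group means. Columns of a group look alike, and genes such as ENAC1, ONAC103, NAC58 and ONAC016 change shade between groups.

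The first question was which NAC genes changed under stress in QJ leaves. Of the 28 listed genes, 27 passed a filter on low values (at least 1 FPKM in at least 3 of the compared libraries), and 14 of these were higher and 13 lower under stress in limma on log2(FPKM + 1) at an adjusted p under 0.05. Among all 3641 genes tested in that table, 99.7% passed, 50.7% as higher and 49% as lower, because the authors chose these genes from the same libraries. The NAC counts (51.9% higher, 48.1% lower) were near that background and are not separate evidence of a response. The median NAC difference was 0.66 on the log2 scale, against 0.66 over all tested genes. Both medians depend on which low genes pass the filter: without any 1 of the stressed QJ libraries they were 0.07 to 0.15 for NAC genes and -0.73 to -0.72 for all genes, and with a filter of 5 FPKM 1.00 and -0.56. For 3 NAC genes the filter was met by 1 group alone, the stressed libraries for ONAC016 and the controls for ONAC051 and ONAC118, as it was for 20.5% of all tested genes. Without any 1 of the QJ controls ONAC051 and ONAC118 were no longer tested, and 11 NAC genes were lower. Every NAC gene that passed had an adjusted p of at most 0.0150. The largest rises among genes at 5 FPKM or more were in NAC131, NAC122, ONAC121 and NAC58, and the largest falls in ONAC012, ENAC1, OsNAC3 and SNAC1.

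In LJ leaves 23 of the 24 listed NAC genes passed the filter, 21 of them higher (91.3%) and 2 lower (8.70%) under stress. Among all 5990 genes tested there, 99.7% passed, 49.6% as higher and 50% as lower. The median NAC difference was 1.66 on the log2 scale, against -0.54 over all tested genes, and the largest adjusted p among the NAC genes was 0.00208. The median of all genes turned positive without any 1 of the LJ controls (0.84 to 0.85, NAC genes 1.69 to 1.73) and with a filter of 5 FPKM (0.87, NAC genes 2.25). The 2 lower genes were ONAC007 and ONAC006. ONAC006 had at least 1 FPKM only in the 3 control LJ libraries (1.13, 1.98 and 1.89 FPKM), as ONAC016 and ONAC055 had only in the stressed ones, so ONAC006 falls below the filter when any of them is left out, and the count of lower genes is then 1.

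A total of 12 NAC genes were listed in both stress tables, 42.9% of the QJ list and 50% of the LJ list, where all genes in both made up 54.1% and 32.6% of the lists. All 12 were higher under stress in both varieties: ONAC015, ONAC016, ONAC032, ONAC055, ONAC077, ONAC083, ONAC085, ONAC103, ONAC121, NAC58, NAC122 and NAC131. Of the 1958 genes of any kind tested in both tables, 56.9% were higher in both, 35.2% lower in both and 7.46% passed in opposite directions. The LJ stress table listed none of the 13 genes lower in QJ leaves, which were ENAC1, NAC5, NAC22, ONAC008, ONAC012, ONAC014, ONAC037, ONAC051, ONAC088, ONAC118, ONAC134, OsNAC3 and SNAC1, and it did not list 54.3% of all 1783 genes lower in QJ leaves. ONAC066 and NAC010 were higher in QJ leaves and not listed for LJ leaves. Another 9 genes were higher in LJ leaves and not listed for QJ leaves, namely NAC17, ONAC028, ONAC031, ONAC039, ONAC041, ONAC045, ONAC072, ONAC087 and OsNAC6. A further 15 genes were in neither stress table.

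**Figure D3:**
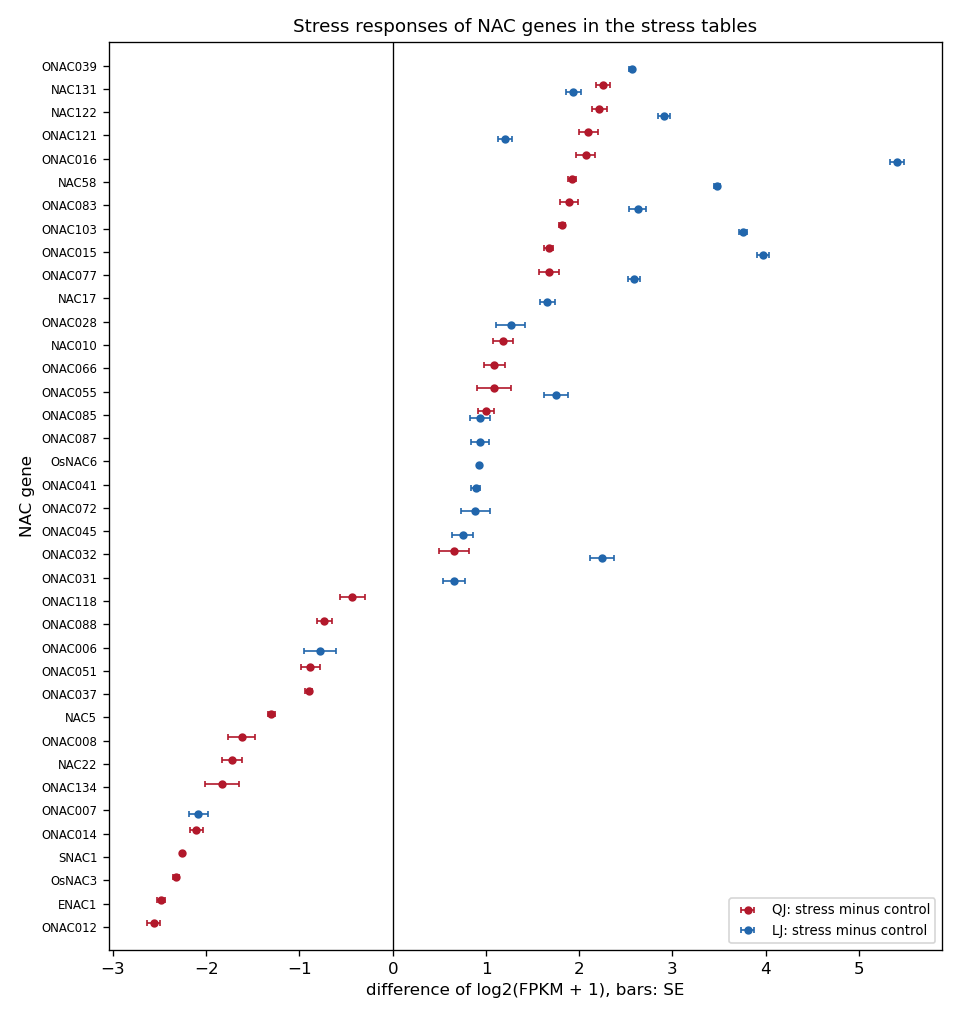
Stress minus control difference of log2(FPKM + 1) for each NAC gene tested in the stress tables, in QJ and in LJ leaves, with bars for the SE of the limma fit. In LJ leaves 21 of 23 genes lie right of 0, and in QJ leaves 14 of 27; a missing point means not listed or under the filter.

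NAC genes known from abiotic stress moved in both directions: SNAC1, OsNAC3, NAC5, NAC22, ONAC014 and ENAC1 fell and ONAC066 and NAC95 rose in QJ leaves, and OsNAC6, ONAC045, NAC95 and NAC17 rose and ENAC1 fell in LJ leaves. SNAC1, a factor that raises drought and salt tolerance when overexpressed in rice, had 357, 357 and 352 FPKM in stressed QJ leaves, against 1735, 1691 and 1678 FPKM in control QJ leaves. All stressed libraries were below all controls, a 4.77-fold lower level (log2 difference -2.25, SE 0.0201, limma adjusted p = 7.00e-11). In stressed LJ leaves SNAC1 had 910.1, 914 and 928 FPKM, above every stressed QJ library, with a difference of -1.36 (SE 0.0186) for stressed QJ minus stressed LJ. Its level in control LJ leaves is not listed.

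OsNAC6, also known as SNAC2 and likewise linked to drought and salt tolerance, had 1592, 1597 and 1610.3 FPKM in stressed LJ leaves, against 821, 849 and 851 FPKM in control LJ leaves. The groups did not overlap, and stressed leaves were 1.90-fold higher (0.93, SE 0.0184). In stressed QJ leaves it had 539, 539 and 569.9 FPKM, 2.91-fold lower than in stressed LJ leaves (-1.54, SE 0.0250). OsNAC6 was thus the most abundant NAC transcript of stressed leaves in both varieties among the listed genes.

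OsNAC3 (Os07g0225300), which acts in abscisic acid response and salt tolerance, had 35.0, 36.0 and 35.0 FPKM in stressed QJ leaves, against 181, 182 and 178 FPKM in control QJ leaves, 5.00-fold lower (-2.32, SE 0.0318). Stressed LJ leaves held 82.1, 82.1 and 91.0 FPKM, between the QJ groups. NAC5 (Os11g0184900), a factor tied to stress tolerance and to senescence, had 61.5, 58.5 and 58.9 FPKM in stressed QJ leaves, against 145, 146 and 155 FPKM in control QJ leaves. This was 2.46-fold lower (-1.30, SE 0.0390), and the 138, 144 and 149 FPKM of stressed LJ leaves overlapped the range of control QJ leaves.

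NAC22 (Os03g0133000), linked to drought and salt tolerance, had 13.2, 9.86 and 12.9 FPKM in stressed QJ leaves, against 40.7, 39.7 and 44.2 FPKM in control QJ leaves, 3.30-fold lower (-1.72, SE 0.107). ONAC014 (Os01g0675800), reported to raise drought tolerance, averaged 18.4 ± 1.70 FPKM in stressed QJ leaves and 82.5 ± 2.66 FPKM in control QJ leaves (SD, n = 3 each), 4.31-fold lower (-2.11, SE 0.0689). In neither gene did stressed and control libraries overlap. Stressed LJ leaves were above stressed QJ leaves for both, with 76.8 to 77.9 FPKM of NAC22 and 65.0 ± 1.58 FPKM of ONAC014 (SD, n = 3).

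ENAC1 (Os01g0862800), named as an early gene induced by abiotic stress, was the NAC gene that differed most between the stressed varieties. It had 26.0, 24.0 and 25.8 FPKM in stressed QJ leaves, against 149, 143 and 145 FPKM in control QJ leaves, 5.59-fold lower (-2.48, SE 0.0431). LJ leaves held 296, 292 and 301 FPKM under stress, against 487, 481 and 485 FPKM in controls. ENAC1 was therefore lower under stress in both varieties, though the LJ stress table does not list it. In a joint fit of the 4 groups, its LJ difference was -0.71 (95% interval -0.78 to -0.64).

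NAC95 (Os06g0726300), known from drought and cold responses, changed in the other direction and by less. It had 40.9, 38.2 and 37.8 FPKM in stressed QJ leaves, against 21.7, 21.8 and 24.2 FPKM in control QJ leaves. Stressed LJ leaves had 69.3, 65.5 and 68.6 FPKM, against 61.4, 62.3 and 58.2 FPKM in control LJ leaves. Stressed libraries were above controls in both varieties, with joint-fit differences of 0.76 in QJ and 0.16 in LJ leaves (limma adjusted p = 2.08e-08 and 0.0124).

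ONAC066 and ONAC045 stood at low levels. ONAC066 (Os03g0777000), which acts in drought and disease resistance, had 5.93, 5.99 and 6.87 FPKM in stressed QJ leaves, against 2.12, 2.43 and 2.69 FPKM in control QJ leaves, 2.13-fold higher (1.09, SE 0.109). ONAC045 (Os11g0127600), linked to drought and salt tolerance, had 7.09, 8.07 and 6.76 FPKM in stressed LJ leaves, against 4.21, 4.27 and 3.36 FPKM in control LJ leaves, 1.68-fold higher (0.75, SE 0.110). In each case every stressed library was above every control of its variety.

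Among senescence genes, NAC58 (Os03g0327800), known as OsNAP and as an activator of chlorophyll breakdown, rose in both varieties. It had 103, 102 and 100.1 FPKM in stressed QJ leaves, against 26.7, 24.8 and 26.7 FPKM in control QJ leaves, 3.80-fold higher (1.93, SE 0.0434). Stressed LJ leaves had 227, 229.8 and 233 FPKM, against 19.3, 19.9 and 20.0 FPKM in control LJ leaves, 11.1-fold higher (3.48, SE 0.0315). The groups did not overlap in either variety, and stressed LJ leaves exceeded stressed QJ leaves. NAC2 (Os04g0460600), another factor that promotes senescence, averaged 10.7 ± 1.37 FPKM in stressed QJ and 17.4 ± 0.110 FPKM in control QJ leaves (SD, n = 3 each), and 33.1 ± 0.436 FPKM in stressed LJ and 35.5 ± 2.04 FPKM in control LJ leaves. Its joint-fit difference passed as lower in QJ leaves (-0.66, limma adjusted p = 2.97e-06) and did not pass in LJ leaves (-0.10, 95% interval -0.26 to 0.06).

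Genes that act downstream of senescence NAC factors were read from a separate list of chlorophyll breakdown and senescence genes. All 5 tested in QJ leaves and all 10 tested in LJ leaves were higher under stress. SGR, which takes the magnesium out of chlorophyll a, averaged 151 FPKM in stressed QJ leaves and 32.3 FPKM in control QJ leaves, and 400.5 FPKM in stressed LJ leaves and 39.2 FPKM in control LJ leaves. The 5 genes with values in all libraries summed to 448 to 455 FPKM in stressed QJ, 155 to 157 in control QJ, 737 to 745 in stressed LJ and 109 to 112 in control LJ libraries, and all 5 had a smaller rise in QJ than in LJ leaves, where 25% of all tested genes had a lower difference of responses. A list of stress genes known as targets of NAC and abscisic acid signalling, such as Rab16A and OsLEA3-1, was higher under stress in 8 of 8 tested genes in QJ and 7 of 7 in LJ leaves. The shares of all tested genes that passed as higher under stress were 50.7% in QJ and 49.6% in LJ leaves. With 99.7% of tested genes passing in each stress table, the list counts show direction only. No test sets the lists apart from other genes.

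ONAC039 (Os03g0327100), whose identifier lies close to that of NAC58 on chromosome 3, rose in LJ leaves as well. It had 411, 417 and 419.9 FPKM in stressed LJ leaves, against 70.2, 69.8 and 68.5 FPKM in control LJ leaves, 5.91-fold higher (2.56, SE 0.0239). In stressed QJ leaves it had 96.7, 91.5 and 96.3 FPKM, 4.35-fold lower than in stressed LJ leaves (-2.12, SE 0.0287). All 3 groups were apart, and control QJ leaves are not listed.

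The defence-related genes NAC122 (Os11g0126900) and NAC131 (Os12g0123700), known for resistance to rice blast, had the largest rises in QJ leaves on the log2(FPKM + 1) scale. By the ratio of means ONAC016 rose more (15.8, against 5.08 for NAC122 and 5.48 for NAC131). NAC122 had 40.7, 41.0 and 41.5 FPKM in stressed QJ leaves, against 7.30, 7.74 and 9.18 FPKM in control QJ leaves, 4.65-fold higher (2.22, SE 0.0823). In LJ leaves it had 29.1, 28.3 and 30.3 FPKM under stress, against 3.09, 2.92 and 3.08 FPKM in controls, 7.51-fold higher (2.91, SE 0.0646). The groups did not overlap within a variety.

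NAC131 had 28.7, 28.1 and 30.9 FPKM in stressed QJ leaves, against 5.01, 5.43 and 5.55 FPKM in control QJ leaves, 4.77-fold higher (2.25, SE 0.0710). Stressed LJ leaves had 16.6, 14.7 and 15.6 FPKM, against 3.54, 3.14 and 3.37 FPKM in control LJ leaves, 3.82-fold higher (1.93, SE 0.0802). Both genes were thus higher in stressed QJ than in stressed LJ libraries. They sit, with the neighbouring identifiers ONAC077 on chromosome 12 and ONAC123 and ONAC045 on chromosome 11, at chromosome ends that are known to share a recent duplication. The counting of reads that fit several near-identical copies is not given in the sources used here. The split between such copies is uncertain.

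ONAC077 (Os12g0123800) averaged 13.9 ± 1.13 FPKM in stressed QJ leaves and 3.69 ± 0.490 FPKM in control QJ leaves, and 63.4 ± 0.640 FPKM in stressed LJ leaves and 9.75 ± 0.989 FPKM in control LJ leaves (SD, n = 3 each). It rose 3.19-fold in QJ (1.67, SE 0.109) and 6.01-fold in LJ leaves (2.59, SE 0.0690). ONAC123 (Os11g0127000) stayed at 0.06, 0.06 and 0.05 FPKM in stressed LJ leaves and was listed at 0 in the control LJ libraries. It was under the filter and was not tested.

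OsNAC4 (Os01g0816100), known for hypersensitive cell death, had 45.6, 44.9 and 46.8 FPKM in stressed QJ leaves, against 25.9, 27.9 and 26.5 FPKM in control QJ leaves. LJ leaves had 122.7, 113 and 120.2 FPKM under stress, against 103, 111 and 107 FPKM in controls. Stressed libraries were above controls in both varieties, narrowly in LJ, with joint-fit differences of 0.75 and 0.14 (limma adjusted p = 4.24e-09 in QJ and 0.00808 in LJ leaves). LJ libraries of either treatment were above all QJ libraries.

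ONAC007 (Os06g0131700), a regulator of secondary wall formation, had 1.73, 1.62 and 2.17 FPKM in stressed LJ leaves, against 11.7, 10.7 and 10.6 FPKM in control LJ leaves, 4.24-fold lower (-2.08, SE 0.102). Control QJ leaves had 2.10, 2.5 and 2.06 FPKM, 3.73-fold lower than control LJ leaves (-1.90, SE 0.0907). The control LJ libraries were the high ones in both comparisons, and they were also the libraries with the raised anther and inflorescence markers given above. ONAC029 (Os08g0115800), of the same group, had 0.97, 0.84 and 0.67 FPKM in stressed QJ, 0.18, 0.34 and 0.30 FPKM in control QJ and 1.44, 1.36 and 1.19 FPKM in control LJ leaves. It was under the filter for QJ stress, met it between the controls through the LJ libraries alone, and passed as lower in control QJ than in control LJ leaves (-0.87, SE 0.0859).

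Of the genes of secondary wall synthesis, which act downstream of such factors, 6 of 6 tested were lower under stress in LJ leaves, 2 of 2 in QJ leaves, and 8 of 8 were lower in control QJ than in control LJ leaves. Of all tested genes, 50%, 49% and 68.6% were lower in these comparisons. The 2 tested in QJ leaves were OsCesA4 and CESA7, the latter at 0.397 FPKM in stressed and 1.52 FPKM in control QJ leaves. The 7 with values in all libraries summed to 183 to 191 FPKM in stressed QJ and 161 to 170 in control QJ libraries. In LJ libraries they summed to 414 to 522 FPKM under stress and 667 to 783 in controls. The QJ sum was thus higher under stress, mostly OsIRX14, at 175 FPKM in stressed and 147 FPKM in control QJ leaves on average. OsCesA4, a cellulose synthase of secondary walls, averaged 5.77 FPKM in stressed LJ leaves and 97.4 FPKM in control LJ leaves, and 1.95 FPKM in stressed QJ leaves and 4.80 FPKM in control QJ leaves. For both the wall genes and ONAC007, the part of the reproductive markers in the LJ control level was not tested.

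OsNAC8 (Os01g0261200), which the RefSeq gene table also names OsNTL3 and which is known as a membrane-bound factor released under heat, was listed between the stressed varieties. It had 106, 111 and 117 FPKM in stressed QJ leaves, against 242, 247 and 241 FPKM in stressed LJ leaves, 2.18-fold lower (-1.12, SE 0.0370). The groups were apart. No value for its controls is listed, so nothing can be said of its stress response here.

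NAC17 (Os11g0154500), reported to act in drought tolerance, responded in LJ leaves. It had 18.4, 21.0 and 20.9 FPKM in stressed LJ leaves, against 5.65, 5.89 and 5.44 FPKM in control LJ leaves, 3.16-fold higher (1.66, SE 0.0754). QJ leaves had 2.77, 2.06 and 2.01 FPKM under stress, against 2.83, 2.09 and 3.31 FPKM in controls, and these groups overlapped. The QJ difference in the joint fit did not pass (-0.18, 95% interval -0.46 to 0.09).

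The largest rise of any NAC gene was that of ONAC016 (Os01g0104200). It had 51.2, 47.9 and 48.6 FPKM in stressed LJ leaves, against 0.20, 0.19 and 0.15 FPKM in control LJ leaves, a 273-fold ratio of means. With 1 added to each value the fold was 42.5 (5.41, SE 0.0738), since both control means were under 1 FPKM. Stressed QJ leaves had 4.52, 3.95 and 4.62 FPKM, against 0.31, 0.31 and 0.21 FPKM in control QJ leaves, a ratio of 15.8 and a fold of 4.20 on the same scale (2.07, SE 0.1003). Control levels were close to 0 in both varieties, and stressed LJ libraries were above stressed QJ libraries. In both stress comparisons ONAC016 met the filter through the stressed libraries alone, so it was tested only because of the group where it was high.

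ONAC103 (Os07g0683200) and ONAC015 (Os07g0684800), with close identifiers on chromosome 7, showed the same order of groups apart from the stressed leaves. ONAC103 had 271, 269 and 267 FPKM in stressed QJ leaves, against 78.9, 73.6 and 75.2 FPKM in control QJ leaves, 3.52-fold higher (1.81, SE 0.0331). In LJ leaves it had 212, 207 and 217 FPKM under stress, against 14.0, 14.9 and 15.4 FPKM in controls, 13.5-fold higher (3.76, SE 0.0444). Its control LJ libraries were the low ones and its stressed QJ libraries the high ones.

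ONAC015 had 65.5, 61.2 and 63.6 FPKM in stressed QJ leaves, against 19.1, 19.8 and 18.8 FPKM in control QJ leaves, 3.19-fold higher (1.67, SE 0.0472). LJ leaves had 81.0, 75.0 and 77.0 FPKM under stress, against 4.35, 3.76 and 3.96 FPKM in controls, 15.7-fold higher (3.97, SE 0.0631). All 4 groups were apart, with stressed LJ leaves highest and control LJ leaves lowest.

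ONAC121 (Os10g0571600) was higher in stressed QJ leaves than in any other group, with 39.6, 39.7 and 39.6 FPKM, against 7.17, 9.92 and 8.59 FPKM in control QJ leaves, 4.28-fold higher (2.10, SE 0.102). In LJ leaves it had 12.3, 12.5 and 13.6 FPKM under stress, against 4.67, 5.24 and 5.05 FPKM in controls, 2.30-fold higher (1.20, SE 0.0776). ONAC012 (Os05g0442700) had the largest fall of QJ leaves on the log2(FPKM + 1) scale. It had 13.8, 11.2 and 12.6 FPKM under stress, against 80.8, 78.8 and 77.1 FPKM in controls, 5.92-fold lower (-2.57, SE 0.0723). Its stressed LJ libraries were at 122, 116 and 121 FPKM, above both QJ groups.

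ONAC037 (Os08g0157900) had 76.4, 82.8 and 77.0 FPKM in stressed QJ leaves, against 148, 148 and 147 FPKM in control QJ leaves, 1.87-fold lower (-0.90, SE 0.0379). Stressed LJ leaves had 213, 209.6 and 206 FPKM. Here too stressed LJ leaves exceeded both QJ groups, which did not overlap. The remaining genes lower in QJ leaves were ONAC008, ONAC051, ONAC088, ONAC118 and ONAC134, with differences of -1.62, -0.88, -0.74, -0.43 and -1.83. Of these, ONAC118 lost its call without the second stressed QJ library (-0.41, limma adjusted p = 0.0518). ONAC032, at 1.75 ± 0.187 FPKM in stressed QJ and 0.763 ± 0.358 FPKM in control QJ leaves (SD, n = 3 each), rose by 0.66, but did not pass after each library was centred on its median (0.34, limma adjusted p = 0.0676).

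The remaining genes that rose in LJ leaves had differences of 2.63 (ONAC083), 2.25 (ONAC032), 1.75 (ONAC055), 1.27 (ONAC028), 0.94 (ONAC085 and ONAC087), 0.89 (ONAC041 and ONAC072) and 0.66 (ONAC031). Of these, ONAC041 was the most abundant, at 74.9 ± 1.95 FPKM in stressed LJ and 40.0 ± 2.03 FPKM in control LJ leaves (SD, n = 3 each). In QJ leaves ONAC083 rose by 1.89, NAC010 by 1.18, ONAC055 by 1.08 and ONAC085 by 1.00. ONAC083 averaged 18.6 ± 1.84 FPKM in stressed and 4.28 ± 0.355 FPKM in control QJ leaves (SD, n = 3 each).

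Because the stress tables list different genes, the responses of the 2 varieties were also fitted together on the genes with values in all 12 libraries. In this joint fit 16 of the 24 NAC genes were higher and 4 lower under stress in QJ leaves (background 42.6% higher and 33.6% lower of 5170 genes), and 16 were higher and 6 lower in LJ leaves (background 38.2% and 45.3%). A total of 15 genes were higher in both varieties and 3 lower in both (ENAC1, ONAC051 and ONAC006), where 31.7% and 26.2% of all 5170 genes were. ONAC006 entered this fit through the control LJ libraries alone, and its QJ values lay between 0.06 and 0.73 FPKM (limma adjusted p = 0.0480 in QJ leaves). Of the others, NAC17 passed as higher in LJ leaves and did not pass in QJ leaves, ONAC141, ONAC073 and ONAC050 passed as lower in LJ leaves and did not pass in QJ leaves, ONAC001 passed as higher in QJ leaves, and NAC2 as lower in QJ leaves. No NAC gene passed in opposite directions, as 9.25% of all genes did.

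The difference of the responses, QJ response minus LJ response, was tested as an interaction. Of the 24 genes, 7 (29.2%) had a higher value in QJ leaves and 13 (54.2%) a lower value, and 4 did not pass. Over all 5170 tested genes 66.4% passed, 41.4% as higher and 25% as lower. The median was -0.47 for the NAC genes and 0.21 for all tested genes on the log2 scale, and the largest adjusted p of a passing NAC gene was 0.0265. Median centring shifted every tested gene, NAC genes included, by -0.298, which put the median of all genes at -0.086. All of these values rest on the LJ control libraries with the raised reproductive markers.

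Of the 13 genes with lower values, 10 rose in both varieties and rose less in QJ leaves. The largest was that of ONAC016 (-3.34, SE 0.115), followed by ONAC015 (-2.30, SE 0.0768) and ONAC103 (-1.94, SE 0.0550). NAC17 came next (-1.84, SE 0.178), but it passed as higher in LJ leaves alone. ENAC1 also had a lower value (-1.78, SE 0.0441), with a larger fall in QJ than in LJ leaves. ONAC032, NAC58, ONAC077, ONAC083, NAC122, ONAC055, NAC2 and ONAC041 lay between -1.59 and -0.39. ONAC055, at 0.357 to 3.78 FPKM in group means, was past the threshold with all libraries (-0.66, limma adjusted p = 0.0229), and not without the third stressed QJ library (-0.52), the second QJ control (-0.58), the first stressed LJ library (-0.54) or the first LJ control (-0.63), with adjusted p of 0.0503 to 0.0581 in limma.

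The higher values were smaller. ONAC121 (0.89, SE 0.129), OsNAC4 (0.61, SE 0.0611) and NAC95 (0.61, SE 0.0727) rose more in QJ leaves. ONAC001 (Os09g0509100) had 58.2, 63.9 and 61.1 FPKM in stressed QJ leaves, against 36.7, 38.5 and 38.1 FPKM in control QJ leaves, and 11.2, 12.8 and 12.2 FPKM in stressed LJ leaves, against 15.5, 13.4 and 12.2 FPKM in control LJ leaves. Its QJ groups were apart and its LJ groups overlapped, and the difference of responses was 0.85 (SE 0.106). The other 3 genes were ONAC050 (0.87), ONAC141 (0.61) and NAC131 (0.32). ONAC050 was low, averaging 0.533 FPKM in stressed QJ, 0.377 in control QJ, 1.25 in stressed LJ and 2.68 in control LJ leaves. Its QJ groups overlapped. In the joint fit it did not pass in QJ leaves (0.16) and passed as lower in LJ leaves (-0.71). ONAC141 and NAC131 lost the call after each library was centred on its median (0.31 and 0.022, limma adjusted p = 0.241 and 0.870), a step that lowered the median difference of all tested genes by 0.298. ONAC141, with no group mean above 2.73 FPKM, also lost it without the second stressed QJ library (0.56), the first QJ control (0.55), the first or the third stressed LJ library (0.57 and 0.51) or the first LJ control (0.46), and NAC131 with a pseudocount of 0.1 (0.24, limma adjusted p = 0.0818).

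For the 4 genes that did not pass, the 95% intervals included differences of either sign. The interval was -0.22 to 0.35 for ONAC085, -0.18 to 0.58 for ONAC073, -0.59 to 0.52 for ONAC051 and -0.09 to 0.90 for ONAC006. ONAC085 is the narrowest of these, so a difference of responses above 0.35 on the log2 scale lies outside its interval.

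**Figure D4:**
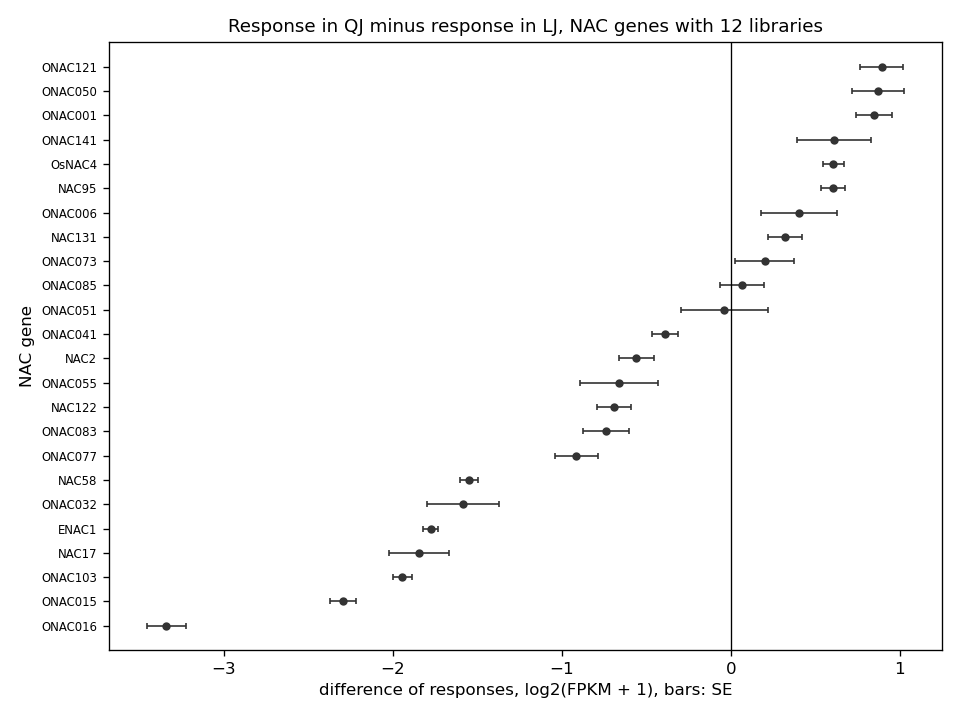
Response in QJ leaves minus response in LJ leaves on the log2(FPKM + 1) scale for the 24 NAC genes with values in all libraries, with bars for the SE. Of the 20 genes that passed, 13 lie left of 0, down to -3.34 for ONAC016, and 7 lie right of it, up to 0.89 for ONAC121.

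Between the varieties, NAC genes were mostly lower in QJ leaves. In stressed leaves 34 of the 36 listed genes passed the filter, 3 as higher in QJ (8.82%) and 31 as lower (91.2%), against a background of 99.4% passing, 34% as higher and 65.4% as lower of 5662 genes. Of the 34, ONAC141, ONAC050 and ONAC051 met the filter through the stressed LJ libraries alone, where they were high. The filter was met by 1 group alone for 20.8% of all tested genes. The median was -1.35 for NAC genes and -0.82 for all tested genes. In control leaves 24 of the 27 listed genes passed the filter, 7 as higher in QJ (29.2%) and 17 as lower (70.8%), against a background of 99.7% passing, 31.1% as higher and 68.6% as lower of 6108 genes, so the shares were near the background. Of the 24, ONAC141, ONAC050, ONAC006, ONAC029 and ONAC118 met the filter through 1 of the groups alone, as did 31.9% of all tested genes. The median there was -0.96 for NAC genes and -1.02 for all tested genes. The 2 variety comparisons share their libraries with the stress comparisons, so they restate the same values from another side. In the joint fit of the 24 genes with values in every library, 5 were higher and 18 lower in stressed QJ than in stressed LJ leaves (background 30.8% and 60.5%), and 8 were higher and 14 lower in control QJ than in control LJ leaves (background 31.2% and 58%).

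In stressed leaves the 3 genes higher in QJ were ONAC001 (4.76-fold, log2 difference 2.25, SE 0.0609), ONAC121 (2.95-fold, 1.56, SE 0.0534) and ONAC038. ONAC038 (Os01g0946200) had 22.6, 20.4 and 20.6 FPKM in stressed QJ leaves, against 8.87, 7.28 and 6.82 FPKM in stressed LJ leaves, 2.58-fold higher (1.37, SE 0.0989). The groups were apart for all 3 genes. The largest falls were those of ENAC1 (11.3-fold lower, -3.50, SE 0.0380), ONAC016 (9.37-fold lower, -3.23, SE 0.0703), ONAC012 (8.93-fold lower, -3.16, SE 0.0700) and NAC17 (6.45-fold lower, -2.69, SE 0.114). The smallest passing difference was that of ONAC031 (-0.50), which lost its call after median centring (-0.36, limma adjusted p = 0.0649) and without the second stressed LJ library (-0.41, limma adjusted p = 0.0676).

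In control leaves the genes with the largest higher values in QJ were ONAC103 (4.89-fold, 2.29, SE 0.0514), ONAC015 (4.03-fold, 2.01, SE 0.0722), ONAC001 (2.64-fold, 1.40, SE 0.0807) and NAC122 (2.24-fold, 1.17, SE 0.0990). The largest lower values were in ONAC073, OsNAC4 (3.90-fold lower, -1.96, SE 0.0441), ONAC007 and ENAC1 (3.30-fold lower, -1.72, SE 0.0223). ONAC073 (Os01g0672100) had 1.04, 1.98 and 1.18 FPKM in control QJ leaves, against 11.0, 11.5 and 11.3 FPKM in control LJ leaves, 5.18-fold lower (-2.37, SE 0.146). It stayed low in stressed QJ leaves, at 1.13, 0.98 and 1.04 FPKM, against 8.42, 8.53 and 7.77 FPKM in stressed LJ leaves. QJ and LJ libraries of ONAC073 did not overlap under either treatment. Median centring raised the median of all tested genes between the controls by 0.605, and NAC17, NAC010 and ONAC006 then no longer passed as lower in control QJ leaves (-0.24, -0.16 and -0.24, limma adjusted p = 0.114, 0.212 and 0.220).

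ONAC061 (Os10g0359500), listed in this comparison alone, averaged 29.5 ± 0.728 FPKM in control QJ leaves and 68.6 ± 1.75 FPKM in control LJ leaves (SD, n = 3 each), 2.28-fold lower (-1.19, SE 0.0393). ONAC075 and ONAC120, listed between the stressed varieties alone, were lower in stressed QJ leaves by small amounts (-0.54 and -0.53). The genes under the filter in these comparisons had little expression. ONAC133 was listed at 0 in stressed QJ libraries, against 0.37, 0.30 and 0.07 FPKM in stressed LJ libraries. OsNAC7 was listed at 0 in control QJ libraries, against 0.12, 0.26 and 0.03 FPKM in control LJ libraries, and ONAC109 had at most 0.05 FPKM in control QJ libraries, against 0.23 to 0.35 FPKM in control LJ libraries.

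**Figure D5:**
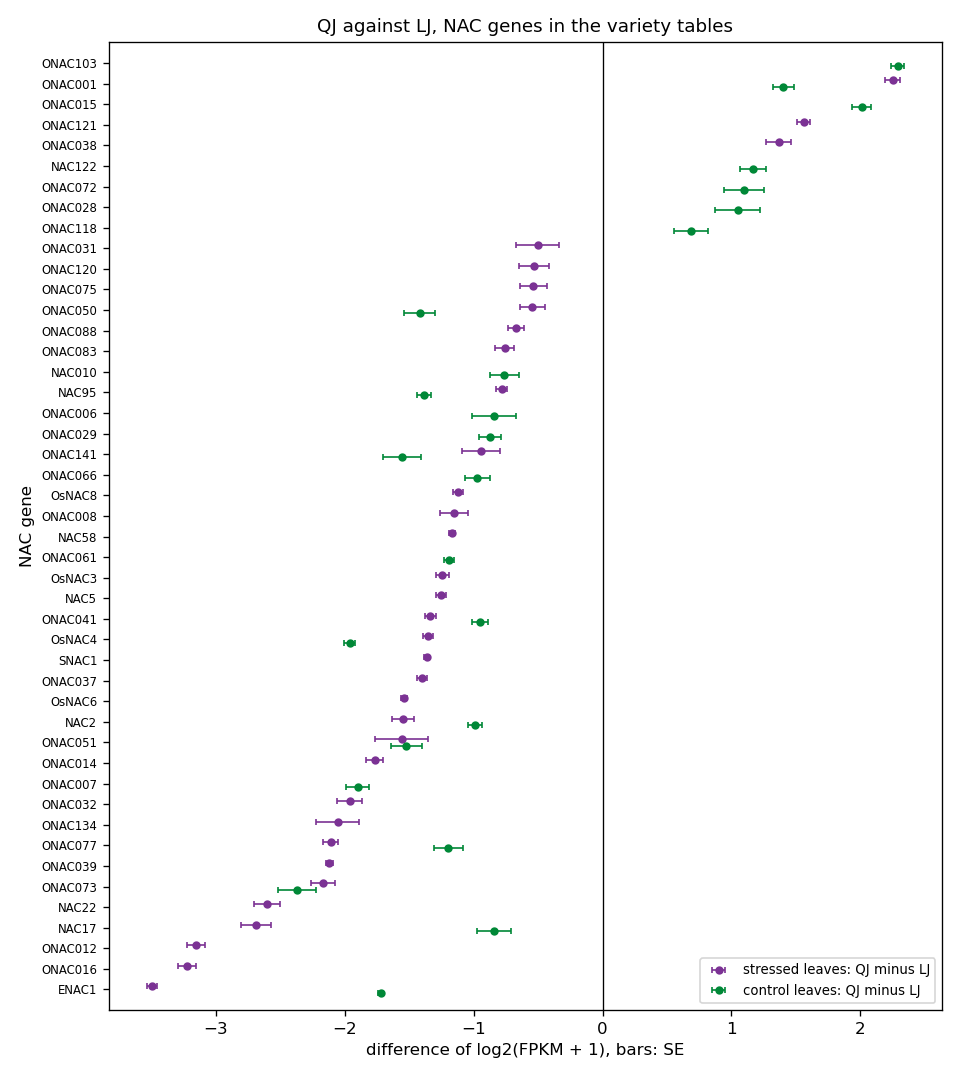
QJ minus LJ difference of log2(FPKM + 1) for the NAC genes tested in the variety tables, in stressed and in control leaves, with bars for the SE. In stressed leaves 31 of 34 genes lie left of 0, and in control leaves 17 of 24.

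Some NAC genes carry other names and were outside the rule. Of 28 such names, 7 genes were found. OMTN1 (Os02g0579000), a target of the microRNA miR164, had 68.8, 67.3 and 69.2 FPKM in stressed QJ leaves, against 21.0, 17.4 and 20.9 FPKM in control QJ leaves, and 101, 102 and 104 FPKM in stressed LJ leaves, against 54.6, 55.2 and 51.6 FPKM in control LJ leaves. It rose in both varieties (1.75 and 0.91), as the members listed in both stress tables did. The secondary wall factor OsSWN6 (Os04g0536500) averaged 0.163 FPKM in stressed QJ and 2.15 FPKM in control QJ leaves, and 4.42 FPKM in stressed LJ and 15.8 FPKM in control LJ leaves, lower under stress in both (-1.44 and -1.63). The membrane-bound type OsNTL5 rose in LJ leaves (1.1), while OMTN3 and OMTN6 were higher in QJ than in LJ leaves under either treatment.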

How the data were processed

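Per the labels, 12 libraries of total leaf RNA were read on a NovaSeq X Plus instrument. The deposited values are FPKM per gene and library. The authors' deposited log2 fold changes and adjusted p-values were used only to see how genes had been selected, and the log2 fold changes also for a scaling alternative. Aligner, genome build and counting method: not given in the sources used here. Libraries were grouped by titles. In the descriptions the 3 control QJ samples carry 1 common library name, and so do the 3 stressed QJ samples, so single QJ replicates rest on titles, while the groups are the same either way. The 2 stress tables carry the other variety in their names than in their headers, and the headers were followed, so the variety labels rest on the headers. Values present in several tables were identical (0 of 31572 differing).

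Each table was fitted by itself in limma 3.58.1 (R 4.3.3, trended prior) on log2(FPKM + 1), keeping genes that reached 1 FPKM in 3 or more libraries, two-sided, with Benjamini-Hochberg adjustment over all tested genes. The joint fit and the difference of responses used the genes with values in all 12 libraries. The fit was tested on simulated data in which most genes did not change. The deposited tables hold selected genes, so that test gives no error rate for them. Tables were read with pandas 2.3.3.

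Members, lists and tests were chosen with earlier results of these data known. Values per library are given for 26 of the 55 genes by rule: the 10 with the highest group mean, per comparison the 4 largest rises and 4 largest falls (at least 5 FPKM in the higher group, groups apart), and a set of known stress and senescence genes. Other genes were given for completeness. Of the members, 10 of 55 matched a name in the RefSeq gene table. Alternatives were pseudocounts of 0.1 and 0.5, no filter or 5 FPKM, median centring, the authors' scaling, limma without trend, a replicate block, the joint fit and leaving out each library.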

Additional observations from a re-analysis of the deposited data

Results flagged for a closer look

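For 20 NAC genes the stress response differed between the varieties by the interaction term of limma (adjusted p under 0.05, over all tested genes), and these are listed with the QJ response minus the LJ response on the log2(FPKM + 1) scale. The response was lower in QJ leaves for ONAC016 (-3.341), ONAC015 (-2.297), ONAC103 (-1.944), NAC17 (-1.845), ENAC1 (-1.776), ONAC032 (-1.585), NAC58 (-1.55), ONAC077 (-0.915), ONAC083 (-0.7377), NAC122 (-0.6911), ONAC055 (-0.6637), NAC2 (-0.5599) and ONAC041 (-0.3877). It was higher in QJ leaves for ONAC121 (0.8931), ONAC050 (0.8714), ONAC001 (0.848), ONAC141 (0.6126), OsNAC4 (0.6085), NAC95 (0.6052) and NAC131 (0.3203). Of these, ONAC050 and ONAC141 had low levels, did not pass in QJ leaves and passed as lower in LJ leaves in the joint fit. Among all tested genes 66.4% passed this test. Median centring shifted every value by -0.298, and ONAC141 and NAC131 then no longer passed. ONAC141 and ONAC055 also lost the call when some single libraries were left out, and NAC131 with a pseudocount of 0.1. Each value includes the LJ control libraries, in which anther markers summed to 247 to 256 FPKM, and the part of those markers was not tested. No group had enough libraries for a test of a single library that stands apart.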

How the results depend on the processing

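Each count of NAC genes and each gene's difference was recomputed under the alternatives. Of 1978 alternative values of single genes, 1947 kept their direction and their side of the threshold, 21 fell short of it, 1 newly passed and 9 changed sign. These counts cover only alternatives in which the gene was still tested. A gene that fell below the filter gave no value and was not counted as lost, such as ONAC051 and ONAC118 without a QJ control. The joint fit, which covers only the 24 genes with values in every library, gave 4 lower genes in QJ stress in place of 13, 6 lower in LJ stress in place of 2, and 5 higher and 18 lower between stressed varieties in place of 3 and 31. A filter of 5 FPKM, which tests fewer genes, gave 1 lower gene in LJ stress and 4 higher and 11 lower between the controls in place of 7 and 17.

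Leaving out a library gave, for QJ stress, 13 to 14 higher and 11 to 13 lower genes, for LJ stress 19 to 21 and 1 to 2, between stressed varieties 3 higher throughout and 27 to 31 lower, between controls 6 to 7 and 13 to 17, and for the difference of responses 6 to 8 and 12 to 13. The sign changes were all in the difference of responses of genes that did not pass: ONAC073 (-0.09658 with median centring, -0.08527 with the authors' scaling), ONAC085 (-0.2325, -0.2212, and -0.01135 without the second LJ control, in a range up to 0.1383 over single libraries left out) and ONAC051 (0.0239 without the first stressed QJ library, 0.1718 without the first stressed LJ library, 0.01139 and 0.03303 without the first and the third LJ control, in a range from -0.2546). ONAC073 passed without the second QJ control (0.368, limma adjusted p = 0.0160). The cause was not tested.

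Same-numbered libraries did not deviate together (correlations -0.0733 to 0.0511 over 12 pairs), so the numbers were not taken as pairs. A replicate block left the counts as they were: 14 and 13 for QJ stress, 21 and 2 for LJ stress, 3 and 31 and 7 and 17 between the varieties, and 7 and 13 for the difference of responses. Median centring shifted the median of all tested genes by -0.317 in QJ stress and 0.605 between controls; no NAC gene changed direction in the 4 pair comparisons. Depth is unknown, so the precision of low values such as those of ONAC016 in controls cannot be given.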
